A study of Homo sapiens with 12 samples.

Results

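The mRNAs of 34 genes that package mRNA for export or mark its exon junctions were followed in 12 RNA-seq libraries. The genes were chosen by name from the TREX, TREX-2, NXF1, cap-binding and exon junction complexes and matched to gene identifiers. All 34 are among the 61860 genes of the deposited count table, with 420 transcripts between them, and all 34 passed the minimum mean count of 2 in every fit. The cells were human embryonic kidney HEK293 Flp-In T-REx lines, an established line with a single site for transgene insertion. In both lines doxycycline at 1 µg/ml for 6 days induced chained miRNAs against the endogenous mRNA of PGC-1α, a transcriptional co-activator. The same treatment induced an miRNA-resistant FLAG-tagged PGC-1α, full length in WT-res and without the arginine and serine rich (RS) domain in ΔRS-res. Each line was a selected clone, so a difference between lines cannot be told apart from a difference between clones. Whole-cell RNA came from a single well and cytoplasmic RNA from 6 pooled wells after hypotonic lysis. Each of the 4 groups (line and fraction) had 3 replicates from consecutive passages, so p-values measure at most the spread between passages of a clone. Fits that use WT-res whole-cell replicate 3, which went against its label (below), also take its departure from its group into that spread. The expected counts totalled between 90333190 and 144628005 per library. Equal amounts of input RNA were taken into rRNA depletion and library preparation, so every value is relative to the other RNAs of its library, and fewer cells and less RNA per cell cannot be told apart.

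In the nucleus, the THO complex and the helicase DDX39B are loaded on mRNA during transcription and splicing, and together with adaptors such as ALYREF they form TREX. TREX hands the mRNA to the export receptor NXF1 and its partner NXT1, which carry it through the nuclear pore, while TREX-2 docks genes and mRNPs at the pore. The cap-binding complex joins the capped end of the mRNA, and the exon junction complex is left upstream of each splice junction and travels with the mRNA to the cytoplasm. RNA that still holds an intron is largely kept in the nucleus. The NXF1 mRNA is a known exception, because its intron 10 carries a constitutive transport element through which an intron-retaining NXF1 mRNA can leave the nucleus.

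One library went against its label. DDX19B, which separated the lines, had 12.1 and 12.7 CPM in WT-res whole-cell replicates 1 and 2, and 14.2, 15.2 and 14.9 CPM in the WT-res cytoplasmic libraries (CPM, counts scaled to a common library size with TMM). The 6 ΔRS-res libraries had between 0.215 and 0.352 CPM, and WT-res whole-cell replicate 3 had 0.204 CPM, like ΔRS-res. SDHA stood at 68.1 to 77.2 CPM in the other WT-res libraries, 326 to 382 CPM in ΔRS-res and 328 CPM in that library. PPARGC1A, the gene of PGC-1α, had 647 and 662 CPM in the other WT-res whole-cell libraries, 487 CPM in this one and 342, 355 and 486 CPM in ΔRS-res whole-cell libraries, so that it equalled ΔRS-res replicate 3. THOC2 did not follow this split, with 223 CPM in this mismatched library, against 143 and 210 in the other WT-res and 110 to 130 in the ΔRS-res whole-cell libraries. It was kept under its label as a WT-res whole-cell library, and the main counts that use it are also given without it. The nuclear RNA NEAT1 had 207 to 328 CPM in whole-cell and 74.7 to 129 CPM in cytoplasmic libraries, with no overlap between fractions. MALAT1, also nuclear, had 1299 to 3076 CPM in whole-cell and 993 to 1783 CPM in cytoplasmic libraries, which overlap, and was at 1783 CPM in WT-res cytoplasmic replicate 1. The part of nuclear RNA in the results was not tested.

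Several abundant member transcripts that were lower in the cytoplasm hold an intron that the reference transcript (MANE Select) splices out. The splice sites of these introns are shown because the results below turn on whether they were used. Each line gives the 5′ splice site, 8 exon and 12 intron bases, or the 3′ splice site, 16 intron and 4 exon bases, on the strand of the gene in hg38. The capitals mark the first and last pair of intron bases.

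Intron 10 of 20 in NXF1 (chr11:62798576-62800376, minus strand, 1801 bases, 56.9% G and C) is held by transcript NXF1-211.
NXF1 intron 10, 5′ splice site: tacatcagGTcagttgtagc
NXF1 intron 10, 3′ splice site: gtcccgttcttgacAGcgcc
Intron 15 of 15 in LENG8 (chr19:54458522-54460765, plus strand, 2244 bases) is held by LENG8-208 and LENG8-202.
LENG8 intron 15, 5′ splice site: atcaaaacGTatgtggtgcc
LENG8 intron 15, 3′ splice site: cctcttgtctccatAGcttc
Intron 6 of 10 in DDX39B (chr6:31532912-31535366, minus strand, 2455 bases) is held by DDX39B-215 and DDX39B-219.
DDX39B intron 6, 5′ splice site: tgcaagatGTaaataccctt
DDX39B intron 6, 3′ splice site: ccttcctcccccccAGccaa
Intron 4 of 5 in CHTOP (chr1:153642430-153643226, plus strand, 797 bases) is held by CHTOP-201.
CHTOP intron 4, 5′ splice site: actccgagGTcagtgctgtg
CHTOP intron 4, 3′ splice site: atgcctcctctctaAGgtca

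The 4 introns begin with GT and end with AG. Those of NXF1, LENG8 and DDX39B are each the longest intron of their MANE Select transcript, and the NXF1 intron is the one known for its transport element.

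The members differed widely in abundance. Compared per length as TPM, in which counts are divided by transcript length, mean levels in WT-res cytoplasm ran from 5.88 TPM for NXT2 to 463 TPM for DDX39B, a ratio of 78.8. DDX39B, the helicase of TREX, stood at 463 ± 19.9 TPM (SD, n = 3) and RNPS1, a peripheral exon junction protein, at 446 ± 24.3 TPM, closer than their spread. SEM1, a small TREX-2 subunit, followed at 243 ± 21.4 TPM, the adaptor ALYREF at 197 ± 34.8 TPM and the exon junction subunit RBM8A at 161 ± 26.1 TPM. Of the 33 neighbouring pairs in this order, 20 differed by less than the larger SD of the pair. The receptor NXF1 was in the lower part of the order at 40.7 ± 9.73 TPM, and LENG8, which is related to the TREX-2 scaffold MCM3AP, was second lowest at 19.8 ± 3.02 TPM.

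Whole-cell and cytoplasmic RNA were compared within each line to ask which mRNAs were a larger or smaller part of cytoplasmic RNA. Whole-cell RNA includes the cytoplasm and values are relative, so the differences do not give the amount of an mRNA outside the nucleus. In WT-res 14 members were higher and 2 were lower in cytoplasmic RNA at an adjusted p under 0.05 (edgeR quasi-likelihood test on gene sums, Benjamini-Hochberg over 26687 genes). Of all genes tested, 41.7% were called, 16.9% as higher and 24.8% as lower. In ΔRS-res 16 members were higher and 2 lower, where 40.9% of all genes were called, 16.6% as higher and 24.3% as lower. All members are protein-coding, while the genes tested include noncoding ones, so here and in the role groups below the share of all genes is not that of like genes. For protein-coding transcript sums of all genes, the share called higher was 40.8% in WT-res and 36.3% in ΔRS-res. The median log2 difference of the members was 0.23 in WT-res and 0.26 in ΔRS-res, against -0.05 and -0.06 over all genes. In both lines 12 members were higher and LENG8 and DDX39B were lower, 14 were called in neither line, and 31 had the same sign in both. No share of all genes is given for these counts across lines, so no excess over all genes can be read from them. Without the mismatched whole-cell library, the counts were 13 higher and 2 lower in WT-res, where 40.9% of all genes were called, and 17 higher and 3 lower in ΔRS-res, where 43.9% were. The call of THOC5 was then lost in WT-res (0.14, adjusted p = 0.151, edgeR's test).

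**Figure D1:**
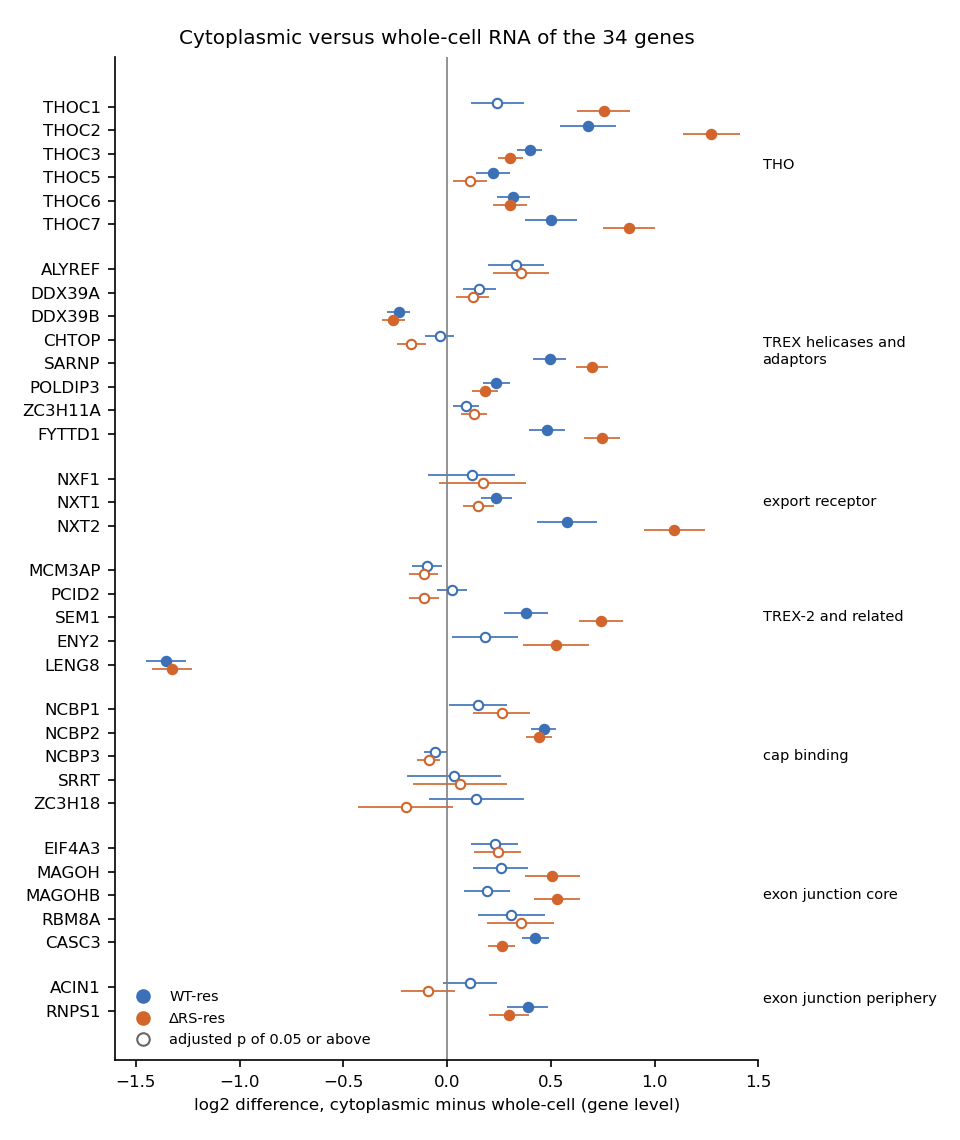
Log2 difference of cytoplasmic minus whole-cell RNA for the 34 genes, grouped by role, with WT-res in blue and ΔRS-res in orange. Points are estimates from all 12 libraries, bars are standard errors, and filled points have an adjusted p under 0.05. LENG8 lies near -1.36 in WT-res and -1.33 in ΔRS-res, away from all other genes.

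Of the 6 THO subunits, THOC2, THOC3, THOC6 and THOC7 rose in cytoplasmic RNA in both lines, THOC5 passed in WT-res and THOC1 in ΔRS-res, and none was lower. Thus 5 of 6 were higher in each line, where 16.9% of all genes were higher in WT-res and 16.6% in ΔRS-res. THOC2, the scaffold of THO (ENSG00000125676, chromosome X), had 143, 210 and 223 CPM in WT-res whole-cell and 295, 321 and 305 CPM in WT-res cytoplasmic libraries. In ΔRS-res it had 113, 130 and 110 CPM in whole-cell and 290, 286 and 274 CPM in cytoplasmic libraries. The fractions did not overlap in either line, and in each fraction every WT-res library was above every ΔRS-res library. The log2 difference was 0.68 (SE 0.136, adjusted p = 0.00192) in WT-res and 1.27 (SE 0.138, adjusted p = 1.62e-05) in ΔRS-res by Benjamini-Hochberg adjusted edgeR quasi-likelihood test. THOC7 had 25.8, 32.1 and 27.4 CPM in WT-res whole-cell and 36.8, 42.7 and 41.1 CPM in WT-res cytoplasmic libraries. The ΔRS-res libraries had 22.8, 23.4 and 19.0 CPM in whole-cell and 40.5, 45.4 and 33.9 CPM in cytoplasmic libraries, again without overlap. Its log2 difference was 0.50 in WT-res and 0.88 in ΔRS-res. THOC3 rose by 0.40 and 0.30 on the log2 scale and THOC6 by 0.32 and 0.30, a call lost in ΔRS-res under 2 of 17 alternatives, while THOC5 passed the test in WT-res (0.22) but not in ΔRS-res (0.11). The THOC5 call was lost under 12 of 17 alternatives. THOC1 had a difference of 0.24 in WT-res (adjusted p = 0.15) and rose by 0.75 in ΔRS-res (adjusted p = 0.000524, edgeR's test).

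Among the helicases and adaptors of TREX, 3 of 8 rose and 1 fell in each line. Of all genes, 16.9% were higher and 24.8% lower in WT-res, and 16.6% and 24.3% in ΔRS-res. FYTTD1, an adaptor that bridges mRNA to NXF1, had 47.4, 54.0 and 60.9 CPM in WT-res whole-cell and 72.8, 75.1 and 78.5 CPM in WT-res cytoplasmic libraries. Its ΔRS-res libraries had 47.7, 52.6 and 50.7 CPM in whole-cell and 80.8, 84.6 and 88.1 CPM in cytoplasmic libraries. Every cytoplasmic library was above every whole-cell library, and the log2 difference was 0.48 (SE 0.0874) and 0.75 (SE 0.0876). SARNP, a DDX39B partner, rose by 0.49 and 0.70, and POLDIP3, an NXF1 adaptor, by 0.24 and 0.18, a call lost under 3 of 17 alternatives in WT-res and 10 of 17 in ΔRS-res. DDX39B fell by 0.23 in WT-res (adjusted p = 0.00549) and by 0.26 in ΔRS-res (adjusted p = 0.00266, edgeR quasi-likelihood test, Benjamini-Hochberg adjusted). Its whole-cell libraries had 705, 683 and 692 CPM in WT-res and 703, 692 and 730 CPM in ΔRS-res. Its cytoplasmic libraries had 586, 609 and 575 CPM in WT-res and 595, 595 and 585 CPM in ΔRS-res. The groups of the fractions did not overlap. With DESeq2's size factors in place of TMM the DDX39B difference no longer passed in WT-res. The other members of this group did not pass in the fit of all 12 libraries. Without the mismatched library ALYREF (0.36, adjusted p = 0.0428) and CHTOP (-0.17, adjusted p = 0.02, edgeR's test) passed in ΔRS-res, the latter as lower. ALYREF had 131, 127 and 107.3 CPM in WT-res whole-cell, 142, 142 and 116 CPM in ΔRS-res whole-cell, 139, 184 and 137 CPM in WT-res cytoplasmic and 182, 182 and 148 CPM in ΔRS-res cytoplasmic libraries. The fractions did not overlap in either line, and the differences were 0.33 and 0.36 (adjusted p = 0.0701 and 0.0539, edgeR's test). CHTOP, which joins TREX late and binds the arginine methyltransferase PRMT1, had 153, 146 and 127 CPM in WT-res and 138, 136 and 138 CPM in ΔRS-res whole-cell libraries. Its cytoplasmic libraries had 134, 144 and 137 CPM in WT-res and 121, 123 and 121 CPM in ΔRS-res, and the differences were -0.04 and -0.17. DDX39A, the paralogue of DDX39B, stood at 0.16 and 0.12 and ZC3H11A at 0.09 and 0.13. The WT-res differences of CHTOP and DDX39A were -0.11 and 0.10 without the mismatched library.

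The export receptor itself showed little difference. NXF1 had 70.0, 69.5 and 45.8 CPM in WT-res whole-cell, 67.9, 66.1 and 50.2 CPM in ΔRS-res whole-cell, 58.8, 83.9 and 58.2 CPM in WT-res cytoplasmic and 78.9, 75.5 and 52.8 CPM in ΔRS-res cytoplasmic libraries. All 4 groups overlapped, and the log2 difference was 0.12 (SE 0.209) in WT-res, or -0.06 without the mismatched whole-cell library, and 0.17 (SE 0.209) in ΔRS-res. NXT1, its heterodimer partner, rose by 0.24 in WT-res, a call lost under 6 of 17 alternatives, and had 0.15 in ΔRS-res (not called). NXT2, the less abundant paralogue, had 6.41, 7.32 and 6.47 CPM in WT-res whole-cell and 9.19, 10.9 and 10.1 CPM in WT-res cytoplasmic libraries. In ΔRS-res it had 4.86, 5.96 and 4.03 CPM in whole-cell and 10.8, 11.6 and 9.31 CPM in cytoplasmic libraries. The fractions were apart in both lines, by 0.58 (SE 0.145) and 1.09 (SE 0.147) on the log2 scale.

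In TREX-2 and its relatives, SEM1 rose by 0.38 and 0.74, with the WT-res call lost under 2 of 17 alternatives. ENY2, which TREX-2 shares with the SAGA complex, had 0.18 in WT-res (not called) and rose by 0.52 in ΔRS-res, a call lost under 3 of 17. MCM3AP, the scaffold, stood at -0.10 and -0.11 and PCID2 at 0.02 (0.05 without the mismatched library) and -0.11, none of them called. MCM3AP had 165, 155 and 144.6 CPM in WT-res and 169, 167 and 163 CPM in ΔRS-res whole-cell libraries. In the cytoplasm it had 142, 157 and 135 CPM in WT-res and 156, 150 and 156 CPM in ΔRS-res. LENG8 (ENSG00000167615) had the largest difference of any member. Its whole-cell libraries had 129, 112 and 119 CPM in WT-res and 102, 103 and 110.5 CPM in ΔRS-res. Its cytoplasmic libraries had 53.8, 44.6 and 42.1 CPM in WT-res and 40.3, 40.3 and 45.3 CPM in ΔRS-res. The fractions were far apart in both lines, and LENG8 fell by 1.36 (SE 0.0974, adjusted p = 4.97e-07) and by 1.33 (SE 0.0974, adjusted p = 5.65e-07) on the log2 scale by Benjamini-Hochberg adjusted edgeR quasi-likelihood test.

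Of the cap-binding group, NCBP2, the subunit that contacts the cap, was the only member that passed, with 0.47 in WT-res and 0.44 in ΔRS-res. NCBP1, its larger partner, had 0.15 and 0.26, NCBP3 -0.06 and -0.09, SRRT (ARS2), which links the cap complex to RNA processing, 0.03 and 0.06, and its partner ZC3H18 0.14 and -0.20. The WT-res differences of NCBP1, SRRT and ZC3H18 were 0.05, -0.17 and -0.02 when the mismatched library was left out. In the exon junction core, CASC3 rose by 0.42 and 0.26. MAGOH had 0.26 in WT-res (not called) and rose by 0.51 in ΔRS-res, and MAGOHB had 0.19 (not called) and rose by 0.53. EIF4A3, the helicase that anchors the complex on RNA, had 123, 122.5 and 106 CPM in WT-res and 142, 136 and 119 CPM in ΔRS-res whole-cell libraries, and 125, 161 and 127 CPM, then 165, 165 and 139 CPM in the cytoplasmic ones. Its differences of 0.23 and 0.24 and those of RBM8A, the partner of MAGOH, of 0.31 and 0.35 did not pass. The WT-res difference of RBM8A was 0.18 without the mismatched library. Of the peripheral proteins RNPS1 rose by 0.39 and 0.30, with the ΔRS-res call lost under 3 of 17 alternatives, and ACIN1 had 0.11 (-0.02 without the mismatched library) and -0.09, not called. When the cell pellet that the whole-cell and cytoplasmic library share was entered as a block, the number of called members rose from 16 to 21 in WT-res and from 18 to 22 in ΔRS-res, while the share of all genes called rose to 49% and 47.1%, with EIF4A3, ALYREF and RBM8A among the additions in both and none lost. These additions rest on the pairing by pellet, and the WT-res whole-cell and cytoplasmic libraries of replicate 1 did not deviate together. For replicate 3 of WT-res, DDX19B and SDHA go against a shared pellet, since its whole-cell and cytoplasmic libraries had 0.204 and 14.9 CPM of DDX19B. Without the mismatched library the block gave 17 members in WT-res, with ALYREF but neither EIF4A3 nor RBM8A, where 41.8% of all genes were called, and 23 members in ΔRS-res, where 49.8% were.

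Gene sums mix spliced and unspliced RNA, so counts were next summed by annotated transcript class within each gene. Class sums and single transcripts were fitted with TMM factors of their own, which set cytoplasmic minus whole-cell differences higher than the printed CPM do. The shift was 0.12 in WT-res and 0.10 in ΔRS-res for classes, and 0.19 and 0.14 for transcripts, on the log2 scale, and the sign of a difference smaller than it depends on the scaling. Protein-coding transcripts of 23 of 34 members were higher in WT-res cytoplasm and those of 1 were lower (all genes, 40.8% higher and 16.2% lower). In ΔRS-res 24 were higher and 1 lower (all genes, 36.3% higher and 16.7% lower). Without the mismatched whole-cell library 18 members were higher in WT-res (all genes, 37.2%) and 25 in ΔRS-res (all genes, 39.1%), with 1 lower in each (all genes, 15.9% and 17.4%) and with ALYREF, EIF4A3, MAGOH, ACIN1 and NCBP3 no longer called in WT-res. The member that was lower in both was LENG8, at -1.24 and -1.23. Retained-intron transcripts went the other way, with 18 of 25 members lower and none higher in WT-res (all genes, 64.1% lower and 1.95% higher). In ΔRS-res 13 of 25 were lower and none higher (all genes, 56.9% lower and 2.35% higher). Leaving out the mismatched library, 17 of 24 were lower in WT-res (all genes, 60.8%) and 14 of 24 in ΔRS-res (all genes, 57.8%). The members' shares of lower retained-intron sums were thus close to those of all genes, and their medians were -1.09 and -0.70 against -1.20 and -1.06. Transcripts annotated to undergo nonsense-mediated decay were called in 8 of 20 members in WT-res, 5 higher and 3 lower (all genes, 17.3% and 11.7%). In ΔRS-res 6 were higher and 3 lower (all genes, 15.1% and 11.2%), and both pairs of counts were the same without the mismatched library (all genes, 15.1% and 11.4% in WT-res, 16.2% and 11.9% in ΔRS-res). The higher ones included NCBP3 (1.86 and 1.37), SARNP (0.87 and 0.56) and ENY2 (0.63 and 0.61), and the lower ones were THOC5 (-1.05 and -1.14), SRRT (-0.83 and -0.63) and ACIN1 (-0.78 and -1.02). DESeq2's size factors moved the median of the protein-coding sums of all genes from 0.34 to 0.47 in WT-res, a shift of 0.13, and that of ΔRS-res from 0.28 to 0.41. Under them 28 members were higher and 1 lower in this class in WT-res (all genes, 49.1% and 14.5%), and 27 and 1 in ΔRS-res (all genes, 45.6% and 15.2%). In the retained-intron class 17 were then lower in WT-res (all genes, 59.6%) and 12 in ΔRS-res (all genes, 52.3%).

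DDX39B showed the split within a single gene. Its retained-intron transcripts summed to 363, 348 and 364 CPM in WT-res whole-cell libraries and 171, 153 and 141 CPM in WT-res cytoplasmic libraries. In ΔRS-res they had 350, 353 and 371 CPM in whole-cell and 158, 161 and 153 CPM in cytoplasmic libraries. These sums fell by 1.09 and 1.08 on the log2 scale, while the protein-coding sums rose by 0.52 and 0.43. RBM8A had a lower level of retained-intron RNA, 1.94, 2.47 and 1.85 CPM in WT-res whole-cell and 0.235, 0.392 and 0.397 CPM in WT-res cytoplasmic libraries. This class fell by 2.47 in WT-res and 2.35 in ΔRS-res. NCBP3 had differences of -1.803 and -1.68 in this class, ACIN1 -1.76 and -1.83 and MCM3AP -1.36 and -1.09, all of which passed. CASC3 (-0.07 and -0.11) and EIF4A3 (0.05 and 0.09) were not called and stayed within or close to the scaling shift. The mean CPM of the EIF4A3 retained-intron class was 13.2 in whole-cell and 12.6 in cytoplasmic WT-res RNA. THOC2 had 4.49, 6.43 and 9.91 CPM in WT-res whole-cell and 4.28, 4.16 and 3.36 CPM in WT-res cytoplasmic libraries in this class, and the highest value was that of the mismatched library. Its difference passed in WT-res (-0.70) but not without that library (-0.41, adjusted p = 0.0841, edgeR's test), and was 0.29 in ΔRS-res (not called).

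Annotated class is not a sequence property, so the transcripts that hold an intron were also found from exon positions. A transcript was counted when one of its exons spans a whole intron of the MANE Select transcript, a definition set after values had been seen. Of 362 member transcripts tested, 42 hold a whole intron in this sense, in 17 genes. In WT-res 22 of the 42 were lower in the cytoplasm and none higher (all such transcripts, 41.2% lower and 1.31% higher). In ΔRS-res 21 were lower and 1, THOC1-215, was higher (all, 35.1% lower and 1.21% higher). Of the 320 transcripts that hold no whole intron, 63 were higher and 53 lower in WT-res (all, 12.5% and 13.1%), and 61 higher and 45 lower in ΔRS-res (all, 10.7% and 12.2%). These 320 are not all free of intron sequence, since 76 are annotated as retained intron. Of the 76, 36 were lower and 3 higher in WT-res (all transcripts of this kind, 34.8% and 1.97%), and 27 lower and 2 higher in ΔRS-res (all, 29.8% and 1.89%), so that most of the lower transcripts without a whole intron were of that annotated class. Without the mismatched whole-cell library, 22 and 21 intron-holding transcripts were lower (all, 36.8% and 33.9%). Of those that hold no whole intron, 47 were then higher and 47 lower in WT-res (all, 10.6% and 11.3%), and 65 and 44 in ΔRS-res (all, 11.8% and 11.7%). LENG8-208, LENG8-202, CHTOP-201 and NXF1-211 are annotated as protein-coding and yet hold an intron, and all 4 were lower in both lines (all transcripts of this kind, 28.6% lower in WT-res and 26% in ΔRS-res).

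The lower gene sum of LENG8 came with this kind of transcript. CPM are not divided by transcript length, so the shares of a gene's CPM below are shares of counts and not of molecules. LENG8-208, which holds the intron shown above and carries 61.7% of the gene's CPM in WT-res whole-cell and 23.4% in WT-res cytoplasmic RNA (group means), had 79.8, 68.3 and 73.7 CPM in WT-res whole-cell and 16.2, 9.58 and 7.03 CPM in WT-res cytoplasmic libraries. Its ΔRS-res libraries had 58.9, 59.8 and 65.7 CPM in whole-cell and 7.72, 9.65 and 7.55 CPM in cytoplasmic libraries. It fell by 2.58 and 2.75 on the log2 scale, with no overlap between fractions. The reference transcript LENG8-201 had 28.7, 28.1 and 29.7 CPM in WT-res whole-cell and 28.5, 25.8 and 27.8 CPM in WT-res cytoplasmic libraries, with fitted log2 differences of 0.11 in WT-res and -0.04 in ΔRS-res, both smaller than the scaling shift and neither called. DDX39B-215, with 33.3% of its gene's CPM in WT-res whole-cell and 18.3% in WT-res cytoplasmic RNA, had 231, 224 and 237 CPM in WT-res whole-cell and 121, 102 and 101 CPM in WT-res cytoplasmic libraries, and fell by 0.91 and 0.94. The spliced DDX39B-202 had 299, 295 and 290 CPM in WT-res whole-cell and 376, 407 and 388 CPM in WT-res cytoplasmic libraries, and rose by 0.59 and 0.46. CHTOP-201, with intron 4, had 23.5, 22.1 and 20.4 CPM in WT-res whole-cell and 6.00, 7.83 and 5.48 CPM in WT-res cytoplasmic libraries, and fell by 1.59 and 1.64. The other intron-holding transcript of CHTOP, CHTOP-206, carried 21.5% of the gene's CPM in WT-res whole-cell RNA, against 15.5% for CHTOP-201. It had 30.2, 28.65 and 32.8 CPM in WT-res whole-cell and 20.2, 14.65 and 18.4 CPM in WT-res cytoplasmic libraries. Its fall in WT-res was smaller, at 0.59, and its fractions did not overlap in either line.

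NXF1-211, the transcript with intron 10, was lower in the cytoplasm by a smaller amount. It had 16.99, 15.3 and 15.7 CPM in WT-res whole-cell and 10.1, 8.77 and 8.91 CPM in WT-res cytoplasmic libraries. In ΔRS-res it had 15.9, 14.9 and 15.6 CPM in whole-cell and 10.5, 10.3 and 10.7 CPM in cytoplasmic libraries. The fractions did not overlap in either line, and it fell by 0.60 (adjusted p = 0.000773) and by 0.43 (adjusted p = 0.00572, edgeR quasi-likelihood test, Benjamini-Hochberg adjusted). The spliced NXF1-201 had 50.4, 51.4 and 27.7 CPM in WT-res whole-cell libraries, where the lowest value is that of the mismatched library, and 46.6, 72.5 and 47.7 CPM in WT-res cytoplasmic libraries. In ΔRS-res it had 49.4, 48.7 and 32.7 CPM in whole-cell and 66.0, 63.0 and 40.6 CPM in cytoplasmic libraries, a wider spread than that of NXF1-211 in each group but the WT-res whole-cell group without the mismatched library. In WT-res CHTOP-206, which also holds an intron, fell by 0.59, close to NXF1-211. Whether the NXF1-211 difference is smaller than that of the other intron-holding transcripts was not tested.

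Expressed as a share of the gene's counts, intron-holding transcripts of LENG8 made up 72.5%, 70.0% and 69.5% in WT-res whole-cell libraries and 37.9%, 35.2% and 26.5% in WT-res cytoplasmic libraries. For DDX39B the shares were 46.7%, 46.0% and 47.0% in whole-cell and 26.8%, 23.4% and 22.8% in cytoplasmic WT-res libraries. For NXF1 they were 24.9%, 22.7% and 35.0% in whole-cell and 17.2%, 10.7% and 15.6% in cytoplasmic WT-res libraries. Every cytoplasmic library was below every whole-cell library in each of these genes, in ΔRS-res as well. That held for 16 of the 17 genes in WT-res, where 74.4% of 4187 genes with such transcripts showed it, and for 16 of 17 in ΔRS-res, where 69.1% did. The exceptions were THOC1 in WT-res and SRRT in ΔRS-res. Without the mismatched whole-cell library it held for 16 of 17 members and 77.8% of all such genes. The median share over the 17 genes was 8.59% in whole-cell and 2.15% in cytoplasmic WT-res RNA, against 6.66% and 2.87% over all such genes. In the other 17 members no transcript spanned a whole MANE Select intron, although 9 of them, NCBP3 and SARNP included, have tested transcripts annotated as retained intron, which these shares leave out. RSEM divides reads among transcripts that overlap, so these shares are estimates, and counting error in them was not assessed. They are not corrected for transcript length. In rRNA-depleted libraries, RNA not yet spliced cannot be told apart from transcripts that keep an intron.

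The introns held by transcripts that were lower in both lines numbered 26. Their median length was 518 bases and their median G and C content 49.9%, against 640 bases and 49.2% for the 135 other introns of the 14 genes they belong to. Over the 368 other introns of all 34 members the medians were 989 bases and 43.4%. All 26 begin with GT and end with AG, as do all 135 and 361 of the 368. Short introns are shown for RBM8A and MCM3AP, for contrast with the long ones above. RBM8A introns 2 and 3 are both held by RBM8A-203, among the transcripts with the largest cytoplasmic differences.
RBM8A intron 2 (chr1:145926887-145927017, minus strand, 131 bases), 5′ splice site: tggctccgGTgagtgtgggg
RBM8A intron 3 (chr1:145926619-145926808, minus strand, 190 bases), 5′ splice site: acaacgctGTgagtaataat
MCM3AP intron 21 (chr21:46246405-46246627, minus strand, 223 bases), 5′ splice site: agaagatgGTttgtgaagga
MCM3AP intron 21 is held by MCM3AP-207. MCM3AP was also the member whose MANE Select transcript fell in both lines. That transcript splices intron 21 out, and a link between its fall and this intron was not tested.

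The MANE Select transcripts of 21 members were higher and that of 1 was lower in WT-res cytoplasm (all genes, 36% higher and 12.8% lower), with 20 and 1 in ΔRS-res (all genes, 31.3% and 13.5%). Without the mismatched library 17 were higher and 1 lower in WT-res (all genes, 32.2% and 12.4%), and 19 and 1 in ΔRS-res (all genes, 34.3% and 13.8%). The lower one was MCM3AP-201, with 55.6, 57.7 and 49.3 CPM in WT-res whole-cell and 26.5, 36.3 and 33.6 CPM in WT-res cytoplasmic libraries. The ΔRS-res libraries had 60.0, 54.5 and 58.8 CPM in whole-cell and 41.8, 34.4 and 40.6 CPM in cytoplasmic libraries, also without overlap. A second MCM3AP transcript, MCM3AP-202, had 65.0 to 79.9 CPM in whole-cell and 80.0 to 93.1 CPM in cytoplasmic libraries of both lines.

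Over all transcripts 10.1% were called higher and 15.5% lower in WT-res cytoplasm, and 8.63% and 14.3% in ΔRS-res. Among the member transcripts 108 were called in both lines in the same direction, 50 higher and 58 lower, and 19 of the 58 and none of the 50 hold a whole MANE Select intron. The shares over all transcripts are for single lines, and none is given for calls in both lines. Without the mismatched library 95 were called in both lines, 41 higher and 54 lower, of which 92 were among the 108, and over all transcripts 9.68% were higher and 13.8% lower in WT-res and 10.8% and 13.9% in ΔRS-res. Among the transcripts described with values, PCID2-204 then lost its WT-res call (adjusted p = 0.0772, edgeR's test), SRRT-202 gained one, none changed sign, and the WT-res differences moved by up to 0.617 on the log2 scale, in DDX39A-203. The largest mean changes were in rare transcripts. PCID2-204 had no count in any whole-cell library and 0, 0.200 and 0.231 CPM in WT-res and 0.286, 0.281 and 0.110 CPM in ΔRS-res cytoplasmic libraries. Folds were set against a floor of 3 counts in each library, averaged over the group as CPM and covering counting error only. PCID2-204 was at least 8.46-fold higher in ΔRS-res cytoplasm. Its WT-res cytoplasmic mean was 5.15-fold above the whole-cell floor, but replicate 1 had no count there, so the WT-res fractions overlapped. DDX39A-203 had 0.276, 0.234 and 0 CPM in WT-res and no count in ΔRS-res whole-cell libraries, and 1.33, 1.71 and 0.989 CPM in WT-res and 1.68, 1.43 and 0.891 CPM in ΔRS-res cytoplasmic libraries. In ΔRS-res it was at least 49.9-fold higher in the cytoplasm. ENY2-205 had no count in any cytoplasmic library and 0.0637 to 0.169 CPM in the whole-cell libraries, at least 4.05-fold lower in WT-res and 4.40-fold lower in ΔRS-res cytoplasm. The other transcripts with the largest changes fell in both lines. RBM8A-203 had 1.62, 1.39 and 1.44 CPM in WT-res and 1.196, 1.44 and 1.31 CPM in ΔRS-res whole-cell libraries, and 0.0624 to 0.123 CPM in the 6 cytoplasmic ones. THOC6-205 had 1.43, 1.2 and 1.29 CPM, then 0.949, 1.00 and 0.9005 CPM in whole-cell libraries and 0.133 to 0.213 CPM in the cytoplasmic ones. Their log2 differences were -3.69 and -3.82 for RBM8A-203 and -2.68 and -2.51 for THOC6-205. CASC3-206 went from 0.173 to 0.414 CPM in whole-cell to 0 to 0.065 CPM in cytoplasmic libraries, with log2 differences of -3.27 and -3.21. MAGOH-204 went from 0.739 to 0.942 CPM to 0.0918 to 0.181 CPM (-2.55 and -2.37), ACIN1-212 from 0.330 to 0.798 CPM to 0.0217 to 0.168 CPM (-2.70 and -3.60) and ACIN1-220 from 1.02 to 1.86 CPM to 0.130 to 0.470 CPM (-1.92 and -2.82). None of these ranges overlapped between fractions. NCBP3 held transcripts that moved in opposite directions. NCBP3-205 had 16.8 to 24.3 CPM in whole-cell and 4.14 to 6.92 CPM in cytoplasmic libraries (-1.71 and -1.601), and NCBP3-204, annotated to undergo nonsense-mediated decay, 2.09 to 9.24 CPM and 13.9 to 17.9 CPM (1.93 and 1.41).

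The lines were compared within each fraction to ask whether the mRNAs of the export machinery depend on the RS domain of PGC-1α. In whole-cell RNA no member and none of 26794 genes (0%) passed an adjusted p under 0.05 by edgeR's quasi-likelihood test. At an unadjusted p under 0.05, 9 members passed, 8 lower and 1 higher in ΔRS-res, and 12.6% of all genes, 8.58% lower and 4% higher. At the study's threshold, which adds a log2 difference above 0.5 in size, 2 members passed, both lower, and 6.36% of all genes, 5.17% as lower. DESeq2's Wald test with Benjamini-Hochberg adjustment called the same 2 members, THOC1 and THOC2, among 1054 genes (3.94%). THOC2 differed by -0.72 (SE 0.164, adjusted p = 0.211 by edgeR, 0.00805 by DESeq2), and every ΔRS-res library was below every WT-res library. THOC1 had 31.2, 40.3 and 36.8 CPM in WT-res and 25.4, 28.5 and 23.1 CPM in ΔRS-res, also without overlap. Its difference was -0.50 (SE 0.122, adjusted p = 0.211 by edgeR, 0.0237 by DESeq2). The other 7 with an unadjusted p under 0.05 were lower for NXT2 (-0.46), THOC7 (-0.40), MAGOHB (-0.30), SEM1 (-0.29), SARNP (-0.25) and LENG8 (-0.20), and higher for POLDIP3 (0.16). The lines did not overlap in whole-cell RNA in 11 members, where 18.9% of all genes did not. This count was 17 without the mismatched library, with CHTOP, DDX39A, MAGOH, NXF1, NXT1 and RNPS1 in addition, where 42.5% of all genes did not overlap.

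Whole-cell libraries with the same replicate number deviated together in the 2 lines, and a block for the number brought 7 members past an adjusted p under 0.05 by edgeR's test, among 2129 genes (7.95%). These were THOC2 (-0.70, adjusted p = 0.0312), THOC1 (-0.50, adjusted p = 0.0275), NXT2 (-0.47), THOC7 (-0.40), MAGOHB (-0.30) and SARNP (-0.25), which fell, and ZC3H18 (0.40), which rose. Without the mismatched whole-cell library and without the block, no member and 551 genes (2.06%) passed, and THOC2 had -0.60 (adjusted p = 0.109) and THOC1 -0.497 (adjusted p = 0.113, edgeR's quasi-likelihood test). At an unadjusted p under 0.05, 11 members then passed, MAGOH and NCBP2 in addition, where 20.1% of all genes did. At the study's threshold THOC2 was the 1 member left, where 10.4% of all genes passed. DESeq2's test then called THOC1, THOC2 and THOC7, where 9.12% of all genes passed, and the block gave 11 members, 8 lower and 3 higher, where 16.4% did. Without WT-res whole-cell replicate 1, THOC2 alone of the members passed, at -0.89, among 544 genes (2.03%). That replicate had the lowest THOC2 of the WT-res whole-cell libraries, and the fit leaves replicate 2 and the mismatched library as that group.

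In the cytoplasm the study kept WT-res replicates 1 and 3 and ΔRS-res replicates 1 and 2. In these 4 libraries 9 members were higher in ΔRS-res and none lower at an adjusted p under 0.05, where 22.1% of 25810 genes were called, 10.7% as higher and 11.4% as lower. At an unadjusted p under 0.05 the members called were 12 higher and 3 lower, where 35% of all genes passed, 17.4% as higher and 17.6% as lower. The 9 came from 6 of the role groups: EIF4A3, RBM8A and MAGOHB of the exon junction core, NCBP1 and SRRT of the cap-binding group, and ALYREF, NXF1, ENY2 and THOC1. EIF4A3 had 125 and 127 CPM in the kept WT-res and 165 and 165 CPM in the kept ΔRS-res libraries, a log2 difference of 0.41 (SE 0.0412, adjusted p = 0.00231, edgeR's quasi-likelihood test). ALYREF had 139 and 137 CPM against 182 and 182 CPM, a difference of 0.42 (SE 0.0424). NXF1 had 58.8 and 58.2 CPM against 78.9 and 75.5 CPM, a difference of 0.42 (SE 0.0451). In these genes the 4 kept libraries fell into separate pairs by line. Without WT-res replicate 3, 16 members passed, where 24.1% of all genes did. Without ΔRS-res replicate 1 the calls of THOC1, SRRT and MAGOHB were lost, without ΔRS-res replicate 2 those of THOC1, MAGOHB and ENY2, and 6 members passed in each case, where 8.7% and 7.85% of all genes did. The MAGOHB call was also lost without WT-res replicate 1 and with DESeq2's size factors, 4 of 8 alternatives in all.

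The 2 cytoplasmic libraries that the study left out lay the other way. EIF4A3 had 161 CPM in WT-res replicate 2 and 139 CPM in ΔRS-res replicate 3, ALYREF 184 and 148 CPM, and NXF1 83.9 and 52.8 CPM. For all 9 called members WT-res replicate 2 was above both kept WT-res libraries and ΔRS-res replicate 3 below both kept ΔRS-res libraries. The same held for 79.3% of the 2754 genes called higher in the 4 libraries. With all 6 cytoplasmic libraries no member passed, where 1.51% of 25946 genes did, and DESeq2's test called none of the members among 930 genes (3.58%). NCBP1 (97.5, 122 and 101 CPM in WT-res, 129, 130 and 99.3 CPM in ΔRS-res) went from 0.40 in 4 libraries to 0.17 in 6. RBM8A (174, 243 and 186 CPM, then 231, 238 and 182 CPM) went from 0.40 to 0.12, and ENY2 (34.3, 48.5 and 40.1 CPM, then 50.0, 55.7 and 37.0 CPM) from 0.53 to 0.22. The lines overlapped in each of these genes when all libraries were counted.

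**Figure D2:**
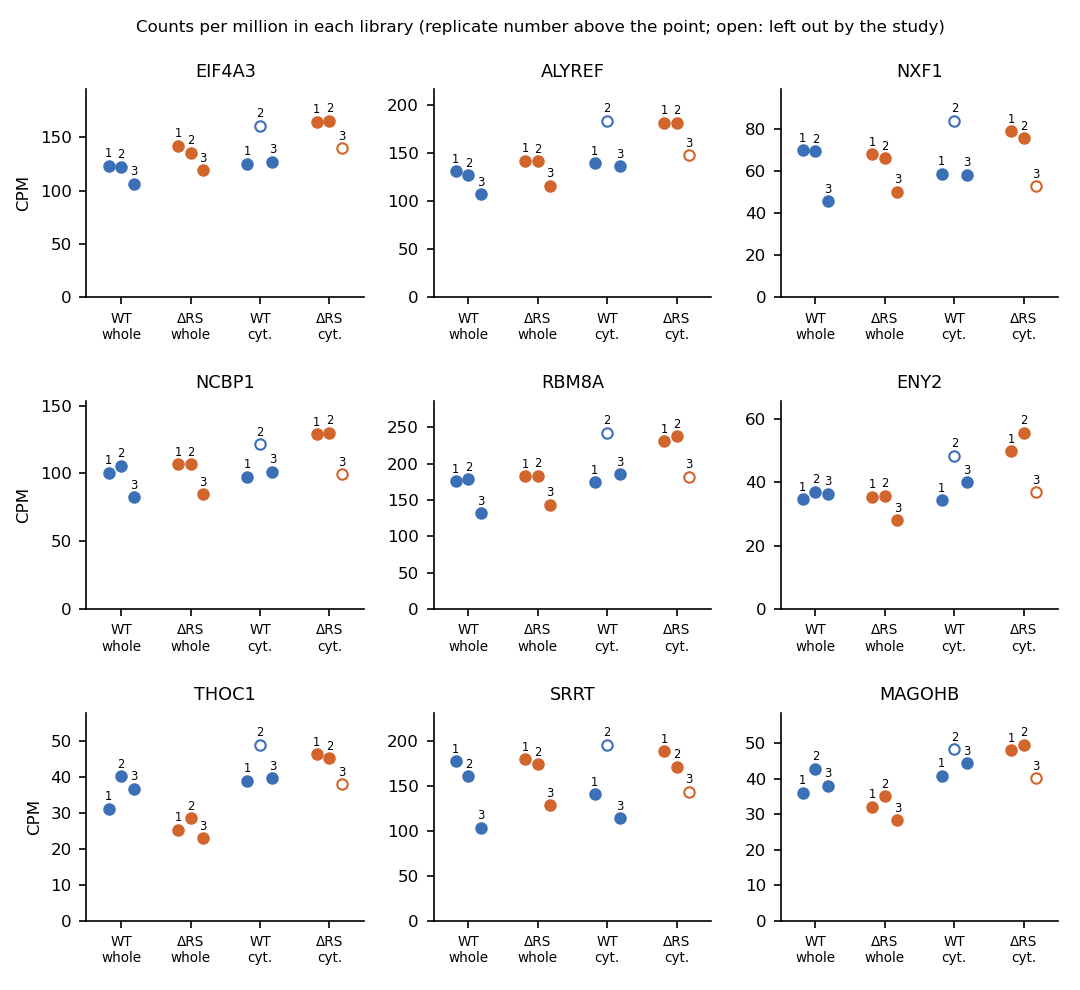
CPM of the 9 genes called in the 4 cytoplasmic libraries, in each of the 12 libraries, with the replicate number above each point. WT-res is blue and ΔRS-res orange, and open points are the cytoplasmic libraries that the study left out. In every panel the open WT-res point is above both filled WT-res cytoplasmic points and the open ΔRS-res point below both filled ΔRS-res cytoplasmic points.

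SRRT (141, 196 and 114 CPM in WT-res, 189, 171 and 144 CPM in ΔRS-res cytoplasm) went from 0.52 to 0.17, THOC1 (39.1, 49.2 and 39.8 CPM, then 46.4, 45.4 and 38.0 CPM) from 0.24 to 0.03, and MAGOHB (40.8, 48.3 and 44.3 CPM, then 48.1, 49.6 and 40.2 CPM) from 0.22 to 0.05. None of the 9 kept its call. Each difference was positive in 6 libraries, but those of NXF1, THOC1 and MAGOHB turned negative when single cytoplasmic libraries were left out, as low as -0.06 for NXF1. At an unadjusted p under 0.05 the 6 libraries gave PCID2 (-0.18), CHTOP (-0.18) and FYTTD1 (0.17), 3 of 34 members where 10.8% of all genes passed. The lines did not overlap in the cytoplasm for these 3 and for THOC2, NCBP2 and POLDIP3, 6 of 34 members where 17.1% of all genes did not overlap. NCBP2 had 95.05, 99.5 and 104 CPM in WT-res and 86.8, 90.7 and 89.6 CPM in ΔRS-res. PCID2 had 57.9, 56.6 and 58.1 CPM in WT-res and 49.1, 52.5 and 50.2 CPM in ΔRS-res.

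**Figure D3:**
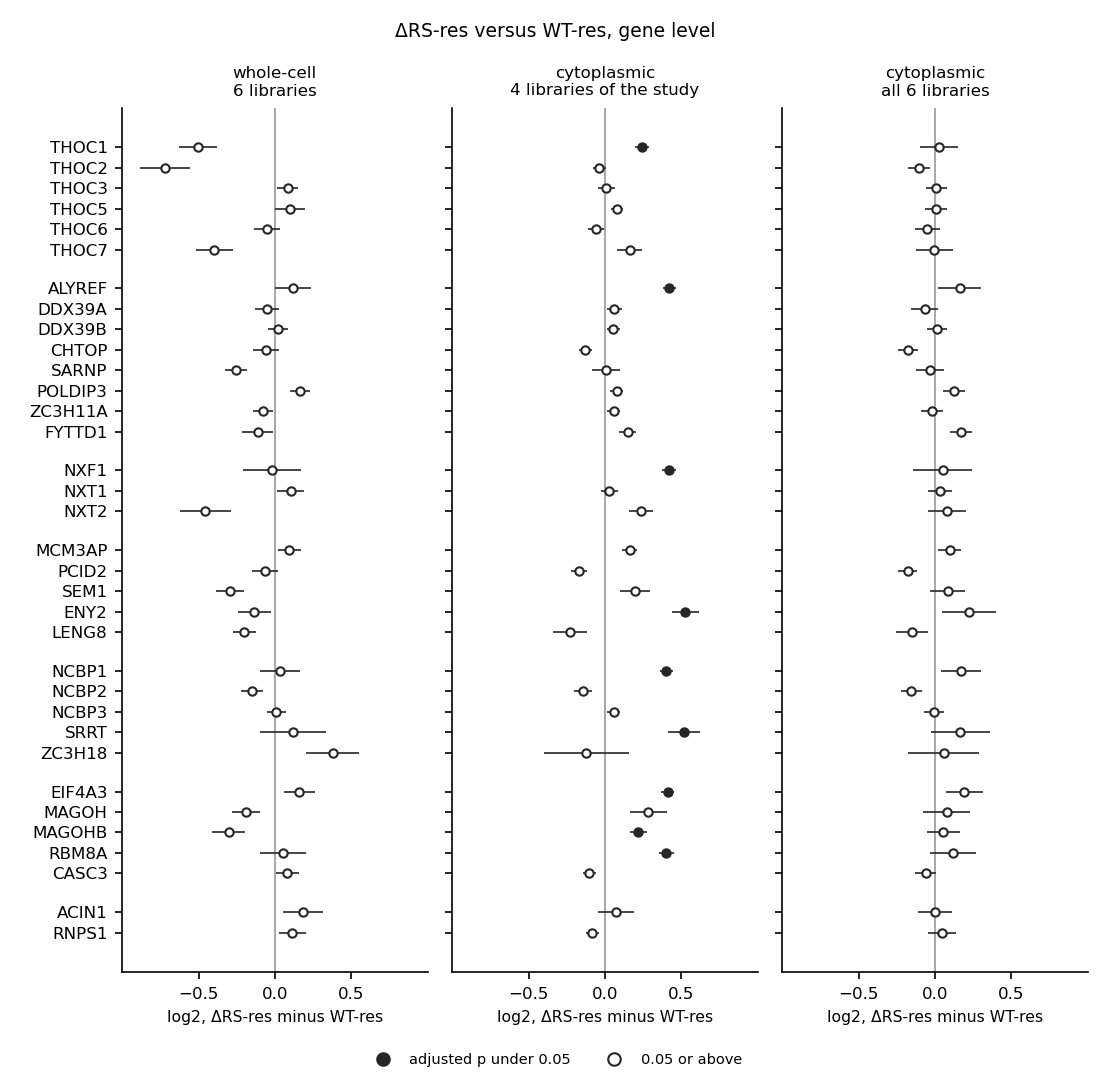
Log2 difference of ΔRS-res minus WT-res for the 34 genes in whole-cell RNA (left), the 4 cytoplasmic libraries of the study (middle) and all 6 cytoplasmic libraries (right). Bars are standard errors, and filled points have an adjusted p under 0.05. Filled points occur in the middle panel, where there are 9, and in neither of the others.

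The difference between lines in the fraction contrast was tested directly as an interaction in the fit of all 12 libraries. No member passed an adjusted p under 0.05, where 1 of 26687 genes (0.00375%) did, and DESeq2's test called no member and 3 genes (0.0112%). At an unadjusted p under 0.05 the members were THOC2 (0.59, SE 0.192), THOC1 (0.51, SE 0.18), NXT2 (0.52, SE 0.205) and SEM1 (0.36, SE 0.15), where 5.52% of all genes passed, 4.19% with a positive sign. In all 4 the cytoplasmic excess was larger in ΔRS-res. Without the mismatched whole-cell library, THOC2 (0.47, SE 0.181), THOC1 (0.50) and NXT2 (0.54) had an unadjusted p under 0.05, where 4.72% of all genes did, and no member passed an adjusted p under 0.05. Without WT-res whole-cell replicate 1, THOC2 passed an adjusted p under 0.05 at 0.77, among 440 genes (1.65%). That fit leaves out the WT-res whole-cell library with the lowest THOC2 and keeps the mismatched one.

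At the level of single transcripts, the unit of the study, its threshold called 15 of 360 member transcripts in whole-cell RNA, 14 of them lower in ΔRS-res, where 5.25% of all transcripts were called, 3.44% as lower. The count was also 15 without the mismatched library, 14 of them lower, where 6.28% of all transcripts were called, 3.15% as lower. It was 24 without WT-res replicate 1 and 8 without ΔRS-res replicate 1, where 5.55% and 3.83% of all transcripts were called. Of the 14 lower, 8 belonged to THOC2 and 2 to THOC1. In the 4 cytoplasmic libraries 35 of 350 were called, 23 higher and 12 lower (all, 8.78%, 4.12% and 4.66%). In all 6 libraries 6 of 351 were called, 4 higher and 2 lower (all, 4.06%, 1.93% and 2.13%), and 13 without WT-res replicate 2 or without ΔRS-res replicate 3, where 4.76% and 4.75% of all were. At an adjusted p under 0.05 (edgeR) no member transcript passed in any of these, where 0 (0%), 0 (0%) and 30 (0.0241%) of all transcripts did. The transcripts called with both sets of cytoplasmic libraries were RNPS1-219, DDX39B-214, SARNP-202 and SRRT-202. RNPS1-219 had 99.5, 79.9 and 87.0 CPM in WT-res and 59.9, 55.0 and 60.2 CPM in ΔRS-res cytoplasm, and DDX39B-214 had 6.56, 7.19 and 6.77 CPM in WT-res and 10.9, 9.70 and 10.6 CPM in ΔRS-res. SARNP-202 had 8.14, 6.80 and 8.65 CPM in WT-res and 5.09, 5.20 and 5.40 CPM in ΔRS-res. In all 3 the lines did not overlap, with RNPS1-219 and SARNP-202 lower and DDX39B-214 higher in ΔRS-res. SRRT-202 was rare, with 0.0417 to 0.0578 CPM in WT-res and 0.0957 to 0.335 CPM in ΔRS-res.

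Paralogues kept their order in every library. DDX39B exceeded DDX39A per length by 4.76 ± 0.314 fold in WT-res whole-cell and 4.27 ± 0.179 fold in WT-res cytoplasmic RNA (SD, n = 3), and by 5.03 ± 0.111 and 4.47 ± 0.19 fold in ΔRS-res. The WT-res whole-cell libraries had 4.56, 4.60 and, in the mismatched library, 5.12 fold, with a mean of 4.58 without it. DDX39A had 110, 106 and 95.5 CPM in WT-res and 103, 97.2 and 102 CPM in ΔRS-res whole-cell libraries, and 106.8, 126 and 114 CPM, then 113, 114 and 103 CPM in the cytoplasmic ones. MAGOH exceeded MAGOHB by 2.06 ± 0.113 fold in WT-res whole-cell and 1.84 ± 0.139 fold in WT-res cytoplasmic RNA. MAGOH had 42.1, 44.7 and 39.1 CPM in WT-res whole-cell and 42.0, 54.9 and 53.6 CPM in WT-res cytoplasmic libraries, and in ΔRS-res 39.5, 37.7 and 34.1, then 53.3, 61.6 and 43.3 CPM. The fractions of MAGOH did not overlap in ΔRS-res and did in WT-res. NXT1 exceeded NXT2 by 5.36 ± 0.39 fold in WT-res whole-cell, 8.14 ± 1.7 fold in ΔRS-res whole-cell, 4.21 ± 0.199 fold in WT-res cytoplasmic and 4.14 ± 0.549 fold in ΔRS-res cytoplasmic RNA. Without the mismatched library the WT-res whole-cell means were 2.07 fold for MAGOH over MAGOHB and 5.28 fold for NXT1 over NXT2. NXT1 had 15.5, 15.9 and 16.5 CPM in WT-res and 16.97, 16.3 and 18.6 CPM in ΔRS-res whole-cell libraries, and 18.7, 19.0 and 18.8 CPM, then 18.6, 19.1 and 19.9 CPM in the cytoplasmic ones.

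Another 28 genes of export, nonsense-mediated decay and exon junction assembly were counted by the same tests. In WT-res 12 of them were higher in the cytoplasm and none lower, where 16.9% of all genes were higher and 24.8% lower. In ΔRS-res 15 were higher and 1, RBM15, was lower, where 16.6% and 24.3% of all genes were. When the mismatched library was left out, 14 and 17 were higher and 0 and 1 lower, where 40.9% and 43.9% of all genes were called. Between the lines 8 were higher and 4 lower in the 4 cytoplasmic libraries, where 10.7% and 11.4% of all genes were. In all 6 the called genes were ICE1 and CWC22, where 1.51% of all genes were called. CWC22, the splicing factor that loads EIF4A3 on the exon junction, differed by -0.51 in 4 libraries and -0.67 in 6 (adjusted p = 0.0171), and ICE1, which acts in nonsense-mediated decay, by 0.78 and 0.73 (adjusted p = 0.00324, edgeR quasi-likelihood test, Benjamini-Hochberg adjusted). In whole-cell RNA none of the 27 tested passed (11 at an unadjusted p under 0.05, as did 12.6% of all genes), and CWC22 stood at -1.25 (SE 0.194, adjusted p = 0.211). When the mismatched library was left out there, CWC22 (-1.32, adjusted p = 0.0241) and ICE1 (0.53, adjusted p = 0.0379, edgeR's test) passed, where 2.06% of all genes did.

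Some members share sequence with other genes, and their counts depend on how RSEM divided reads. All 51-base words of the DDX39B reference transcript occur in another annotated gene, the readthrough ATP6V1G2-DDX39B included, and the sharing genes held 1.94% as many counts as DDX39B. The shares of words were 99.2% for ZC3H11A, which encloses ZBED6, 98.2% for SARNP, 96.5% for POLDIP3 and 79.2% for THOC3. The genes that share sequence with THOC3 held 78.1% as many counts as THOC3, and the values of THOC3 are uncertain for that reason.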

How the data were processed

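The authors ran nf-core/rnaseq on 100-bp paired reads, with Trim Galore, STAR alignment to GRCh38 and RSEM, and deposited expected counts for each transcript, without scaling between libraries. Versions of Trim Galore, STAR and RSEM are not given in the sources used here. Names, types and exons came from GENCODE 44, which holds 99.83% of the genes and 99.72% of the transcripts of the table.

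Expected counts were rounded, summed per gene or per gene and transcript class, and fitted in edgeR 4.0.16 under R 4.3.3 (TMM, quasi-likelihood test, mean count above 2, Benjamini-Hochberg over all features). Whole-cell lines (3 against 3) and cytoplasmic lines (2 against 2 and 3 against 3) were fitted apart, and the fractions and the interaction in 1 fit of all 12 libraries. For transcripts between lines the study's rule was used, a log2 difference above 0.5 in size and an unadjusted p under 0.05. CPM values use the library sizes of the 12-library fit, and TPM values were computed from rounded counts and GENCODE 44 transcript lengths. The alternatives tried were the size factors and the Wald test of DESeq2 1.42.0, no filter, filterByExpr, adjusted p for transcripts, each replicate left out, and a replicate block. The tests were also run on simulated counts, drawn independently for each library, without a mismatched library or shared replicate deviations. No result given here rests on that run.

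All members are named. Values in every library, or ranges for rare transcripts, are given for members called between lines, for the 4 highest and 4 lowest cytoplasmic differences, for NXF1, ALYREF, EIF4A3 and the paralogue pairs, and for the 10 transcripts with the largest change in both lines or called with both sets of cytoplasmic libraries. The members and lists were chosen with earlier results of these data known. LENG8-208, NXF1-211, DDX39B-215, CHTOP-201, CHTOP-206, the MCM3AP and NCBP3 transcripts and the introns shown were chosen after their values were seen. The counts of single transcripts between fractions with WT-res whole-cell replicate 3 left out, and the DESeq2 and blocked gene fits without it, were added then.

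The replicate block was used because same-numbered whole-cell libraries of the lines deviated from their group means together (Pearson correlations 0.545, 0.55 and 0.683 over 14937 genes), and because the study's sample sheet lists the same cell pellet for the whole-cell and the cytoplasmic library with a given line and number. Those pairs correlated at -0.167, 0.588 and 0.473 in WT-res and 0.518, 0.466 and 0.797 in ΔRS-res, so replicate 1 of WT-res did not deviate together, and the whole-cell RNA came from a single well and the cytoplasmic RNA from pooled wells. No libraries of a group were copies: the lowest chi-square per gene between them was 21.8.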

Additional observations from a re-analysis of the deposited data

How the results depend on the processing

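No called gene-level result of a member changed sign under the alternatives run. Differences that were not called did, for 7 members in the WT-res fractions, 1 in the ΔRS-res fractions, 7 in whole-cell lines, 6 in the 4 and 17 in the 6 cytoplasmic libraries and 12 in the interaction. In the WT-res fractions, without WT-res whole-cell replicate 3 NXF1 went from 0.12 to -0.06, ACIN1 from 0.11 to -0.02, SRRT from 0.03 to -0.17 and ZC3H18 from 0.14 to -0.02. With DESeq2's size factors the median of all genes went from -0.05 to 0.01 in WT-res and from -0.06 to 0.01 in ΔRS-res. For whole-cell lines, 0 members became 2 with DESeq2, 7 with the replicate block and 0 to 1 with a replicate left out. Without WT-res whole-cell replicate 3, DESeq2 gave 3 and the replicate block 11, fits added after seeing the data. Over all genes 0 became 18 without a filter, 1054, 2129 and 0 to 551. In the 4 cytoplasmic libraries 9 members became 6 to 16 with a replicate left out, and 5704 genes became 2010 to 6349. A left-out replicate there leaves a line with 1 library, taken to vary as the others do. In all 6 cytoplasmic libraries 0 members stayed 0 in each of these, while 393 genes became 930 with DESeq2 and 119 to 369 with a replicate left out. The fraction counts of 16 and 18 members ranged over 12 to 16 and 15 to 20 with a replicate left out, where 31.8% to 42.8% and 34.2% to 43.9% of all genes were called, those of the class sums (59 and 57) over 52 to 60 and 48 to 59, where 37.3% to 46.4% and 35.6% to 43.8% of all class sums were, and the interaction over 0 to 1 members and 1 to 440 genes, with 2 genes without a filter and 3 with DESeq2. Member transcripts called between lines (15, 35 and 6) became 0, 0 and 0 at an adjusted p under 0.05, and 8 to 24, 24 to 45 and 4 to 13 with a replicate left out, where 3.83% to 6.28%, 7.79% to 10.2% and 3.41% to 4.76% of all transcripts were called. The replicate block gave 62 and 59 class sums (47.7% and 44.3% of all) and 17 whole-cell and 5 cytoplasmic transcripts (5.66% and 3.68% of all), and changed no other call beyond those in the report. In the cytoplasm the lines share only a number (correlations of deviations -0.42, 0.619 and 0.467), and the block left 0 members there; the study's 4 libraries share 1 number, so no block was possible. Among single members, a call was lost under an alternative 8 times for the 4 cytoplasmic libraries, 24 times for fractions in WT-res and 19 times in ΔRS-res, THOC5, POLDIP3 and NXT1 most often. The cause was not tested. Depth limits rare transcripts, where a few counts decide.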
